A study of Mus musculus with 4 samples.

Results

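The mouse mitochondrial chromosome carries 37 annotated genes whose symbols start with mt-, and these were followed here in naive CD4 T cells that had or lacked BTG1 and BTG2. All 37 were taken by symbol alone from the 48858 genes to which the deposited transcripts could be joined. Earlier results of these data were known when this part was chosen. They comprise 13 mRNAs, 2 rRNAs and 22 tRNAs, with 28 genes on the plus strand and 9 on the minus strand (8 tRNAs and mt-Nd6). There were 4 libraries of rRNA-depleted total RNA from cells sorted for TCRb and CD4, without CD25, with high CD62L and low CD44. The 2 wild-type (WT) libraries came from littermates that carried the floxed alleles Btg1f/f and Btg2f/f without Cre. The 2 double-knockout (DKO) libraries came from Btg1f/f Btg2f/f mice with CD4-Cre, in which Cd4 regulatory sequences drive the recombinase, so the alleles were lost during T cell development and not first in the resting cell. All 4 libraries thus share the floxed alleles, and no group carried CD4-Cre alone. The labels used here state no age for the mice. Since the protocol mentions paired WT and DKO animals, each library was taken as 1 mouse.

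Mammalian mitochondrial DNA is transcribed from both strands into long precursors. The tRNAs lie between the mRNAs and rRNAs like punctuation marks, and cutting at their ends by RNase P and ELAC2 releases the mature RNAs. The mRNAs encode core subunits of respiratory complexes I, III, IV and V, and the rRNAs and tRNAs serve the mitochondrial ribosome. Short poly(A) tails on mitochondrial mRNAs are made and removed by enzymes of the organelle, whereas BTG1 and BTG2 bind the cytoplasmic CCR4-NOT deadenylase. The series' title places the comparison in the maintenance of T cell quiescence by mRNA destabilization.

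The tRNAs on which most of the values below rest are shown here as DNA letters, 5′ to 3′ on the strand of the gene, with the anticodon in capitals. Sequences and positions are those of GENCODE mouse release M21 on GRCm38, and the anticodon was located as the middle of the 7-base loop between a paired 5-base stem. The glycine tRNA mt-Tg (chrM:9391-9458, plus strand) is shown because it held most of the tRNA counts in 3 of 4 libraries. The serine tRNA mt-Ts1 (chrM:6870-6938), the glutamate tRNA mt-Te (chrM:14071-14139) and the proline tRNA mt-Tp (chrM:15356-15422), all on the minus strand, had the smallest p-values of the members. The valine tRNA mt-Tv (chrM:1025-1093, plus strand), which lies between the rRNA genes, stands for the plus-strand tRNAs, most of which were higher in one WT library than in the other.
mt-Tg: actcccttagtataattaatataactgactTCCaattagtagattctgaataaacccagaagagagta
mt-Ts1: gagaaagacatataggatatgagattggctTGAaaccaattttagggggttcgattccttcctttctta
mt-Te: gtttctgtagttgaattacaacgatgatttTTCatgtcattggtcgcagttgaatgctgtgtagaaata
mt-Tp: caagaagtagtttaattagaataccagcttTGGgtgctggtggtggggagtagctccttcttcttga
mt-Tv: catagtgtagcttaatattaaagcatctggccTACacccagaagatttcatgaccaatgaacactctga

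The CCA end of a tRNA is added after transcription and is not in these letters. With 59 to 75 bases, every mitochondrial tRNA is shorter than the mean fragment that the deposited effective lengths imply, which was 123.8 and 119.8 bases in the WT and 133.5 and 142.2 bases in the DKO libraries. The groups did not overlap in fragment length, and the part that this has in the tRNA values was not tested.

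The libraries held 13889894 to 17827631 estimated counts. Btg1 and Btg2 were at 1.18% and 0.334% of their WT level in DKO, with log2 fold changes of −6.40 and −8.18 and adjusted p of 1.43e-06 and 8.76e-07 in edgeR's quasi-likelihood F test after Benjamini-Hochberg adjustment. Summed markers of CD4 T cells were 3206 to 3904 CPM, which are counts scaled to a common library size after TMM, a scaling that sets libraries to the level of most genes. Those of CD8 T cells were 7.18 and 7.51 CPM in WT against 8.60 and 13.2 CPM in DKO. Summed markers of B, myeloid, NK, erythroid and platelet cells stayed at or below 5.86 CPM in each library, and Ncr1 (NK) and Pf4 (platelet) were at 0 in all 4. Nuclear protein-coding genes without Lars2 took 30.9 and 30.7% of the gene counts in WT against 35.7 and 40.7% in DKO. For this reason 2 scales are given below: CPM after TMM, and shares of all gene counts. Lars2, left out of nuclear protein-coding counts throughout, had 1032304 and 606605 counts in WT against 1376325 and 1337485 in DKO. The median log2 difference of all genes tested was −0.01 with TMM, 0.33 with total counts and 0.13 on the TPM scale.

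On the TMM scale most mitochondrial RNAs had less signal in both DKO libraries than in both WT libraries, but no single member passed the test. Of the 37, 29 passed the filter on low counts (all mRNAs and rRNAs, 14 of 22 tRNAs), and 3 of these had a DKO library under the filter's minimum, which is 0.640 counts per 1e6 of the library total before TMM. With Benjamini-Hochberg adjustment over 12863 genes, edgeR called 0 of the 29, where it called 0.0544% of all genes higher and 0.07% lower. At an unadjusted p under 0.05, edgeR put 16 of the 29 lower (10 mRNAs, 6 tRNAs) and 0 higher, against 4.35% and 3.82% of all genes. DESeq2 called 5 lower (mt-Ts1, mt-Nd5, mt-Nd6, mt-Te, mt-Tp) and 0 higher, against 1.03% and 0.428% of all genes. Without the filter edgeR called 13 members lower, beside 0.98% of all genes, and without WT replicate 2 it called 6 lower, beside 0.348%. Both DKO libraries lay below both WT libraries in 26 of the 29, beside 18.8% of all genes, and above them in 0, beside 19.8%. Some margins were slight. In mt-Tk WT replicate 1 had 1.005 CPM against 1.001 in DKO replicate 1. In mt-Ta WT replicate 1 had 1.22 CPM against 1.2 in DKO replicate 2. The groups overlapped for mt-Atp6, mt-Tm and mt-Th. The fitted log2 difference was below 0 in 28 of the 29, all but mt-Atp6, beside 51.9% of all genes. As shares of all gene counts, DKO lay below WT in 10 (8 tRNAs, mt-Nd3 and mt-Nd6), above it in mt-Atp6 alone, and overlapped in 18. On that scale 5.68% of all genes lay below and 49.2% above.

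The median log2 difference was −0.63 for the 13 mRNAs, −0.39 for the 2 rRNAs and −1.27 for the 14 tested tRNAs. With total counts in place of TMM these were −0.31, −0.06 and −0.94, and on the TPM scale −0.19, 0.02 and −0.90, so the rRNA direction turned on the TPM scale. Leaving out the first WT library brought the mRNA median to −0.28 and leaving out the second brought it to −0.88. A difference in the number of mitochondria or of RNA per cell cannot be told apart from a difference in the RNA of other kinds around them, since all values are relative within a library of bulk RNA.

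**Figure D1:**
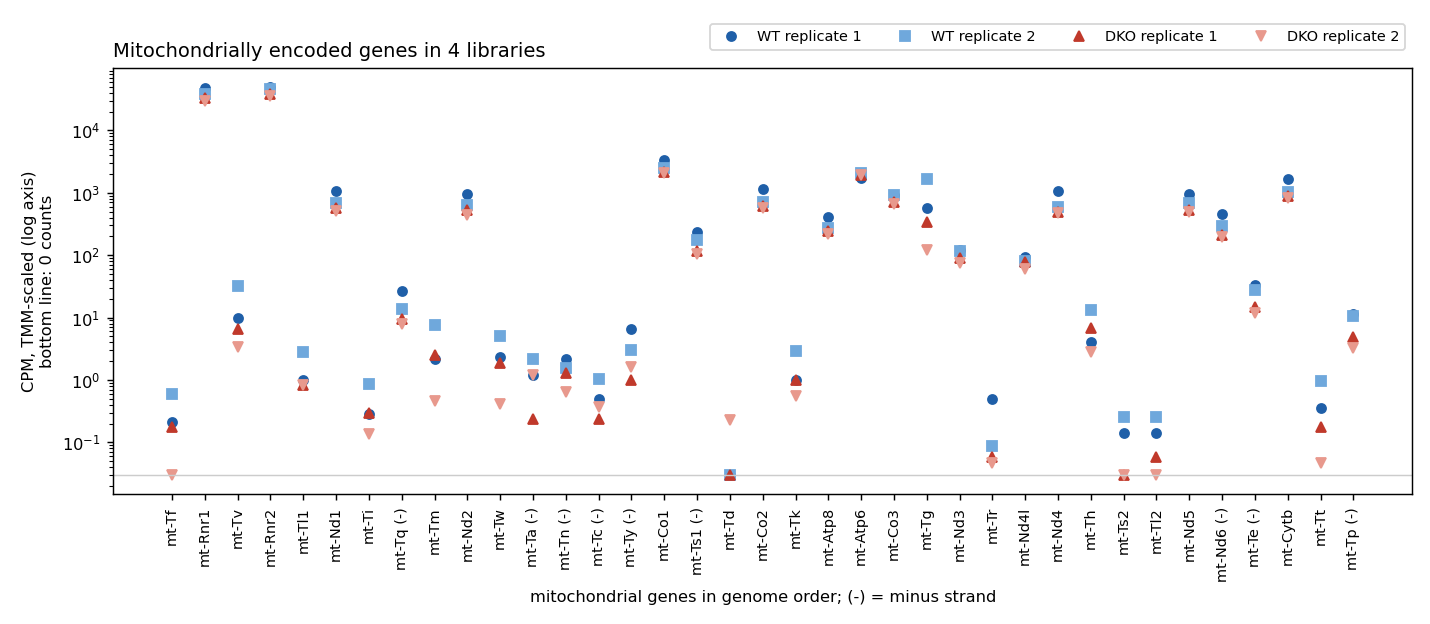
CPM after TMM scaling (log axis) of the 37 mitochondrial genes in genome order, 1 point for each of the 2 WT and 2 DKO libraries, with 0 counts on the bottom line. The rRNAs mt-Rnr1 and mt-Rnr2 lie between 29139 and 48767 CPM, the mRNAs between 60.7 and 3295 CPM, and the tRNAs spread from 0 to 1641 CPM of mt-Tg in WT replicate 2.

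**Figure D2:**
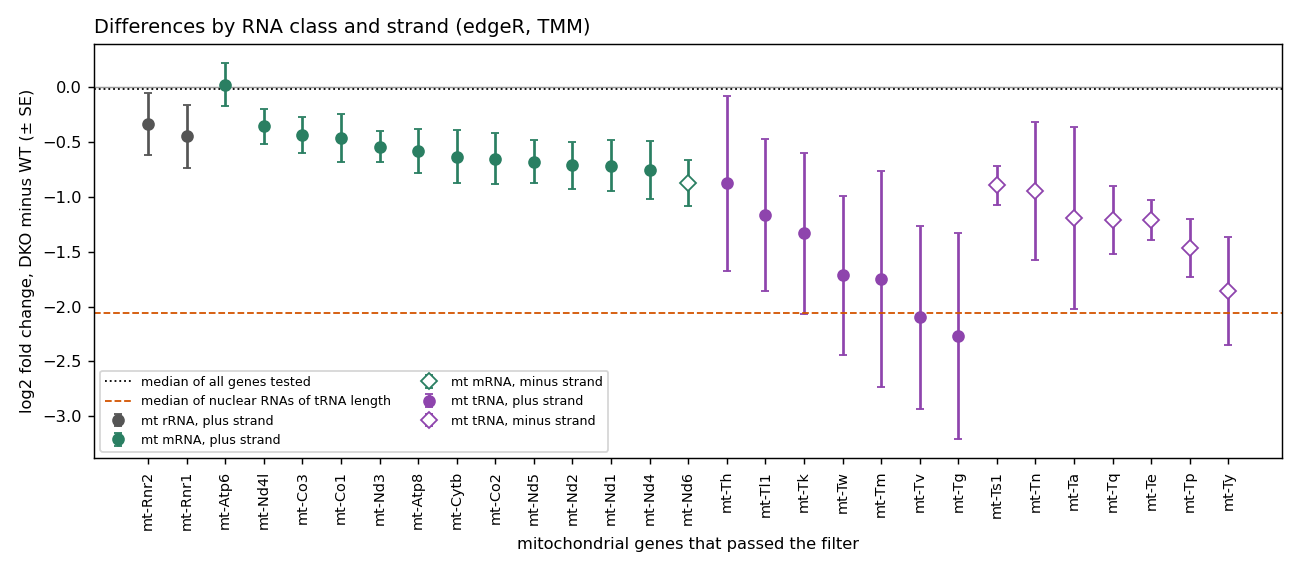
Log2 fold change, DKO minus WT, with its SE for the 29 members that passed the filter, coloured by class and with open diamonds for the minus strand; lines mark the medians of all genes tested and of nuclear RNAs as short as tRNAs. All but mt-Atp6 lie below 0 under TMM; with total counts or TPM mt-Rnr2, and with TPM mt-Nd4l, cross 0.

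The rRNAs held the bulk of the mitochondrial signal. The small-subunit rRNA mt-Rnr1 (12S, chrM:70-1024, plus strand) had 46828 and 37730.0 CPM in WT and 32842 and 29139 CPM in DKO. Its log2 difference was −0.45 (SE 0.29), with the DKO libraries below the WT libraries, and −0.28 without WT replicate 1. The large-subunit rRNA mt-Rnr2 (16S, chrM:1094-2675, plus strand) had 48767 and 45527 CPM in WT and 38716 and 36124 CPM in DKO. Here the difference was −0.33 (SE 0.28), and it was 0.0036 with total counts and 0.06 on the TPM scale. Together they took 8.90 and 6.94% of all counts in WT against 7.34 and 7.93% in DKO, so the groups overlapped. The log2 ratio of these shares was −0.05 (pooled SD 0.19), and 0.14 without WT replicate 1. The exact two-sided permutation test gave p = 1, and 0.333 is the smallest p it can give with 2 against 2. Set against nuclear protein-coding counts, the rRNAs came to 29.0 and 22.8% in WT against 20.7 and 19.7% in DKO, a log2 ratio of −0.36 (pooled SD 0.18), without overlap. Of all counts without rRNA-like genes and Lars2, they took 15.22 and 12.36% in WT against 12.48 and 12.26% in DKO. That log2 ratio was −0.16 (pooled SD 0.15), and the groups overlapped.

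Within the libraries, the proportions of the rRNAs to one another and to the mRNAs differed between the groups by less than the pooled SD. The ratio of mt-Rnr1 to mt-Rnr2 counts was 0.960 and 0.829 in WT against 0.848 and 0.807 in DKO. On the log2 scale this is a difference of −0.11 (pooled SD 0.11), and −0.0027 without WT replicate 1. The rRNAs had 6.94 and 7.89 counts per mRNA count in WT against 7.99 and 7.67 in DKO, a log2 difference of 0.08 (pooled SD 0.10) with overlapping groups. Both rRNAs come from the same stretch of the plus strand as mt-Tv, whose own values differed far more between libraries. Since the libraries were rRNA-depleted, these levels are those left by the depletion.

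The 13 mRNAs together took 1.28 and 0.880% of all counts in WT against 0.918 and 1.03% in DKO. The WT libraries enclosed the DKO libraries on this scale, with a log2 ratio of −0.15 (pooled SD 0.28), which was 0.15 without WT replicate 1. As a percentage of nuclear protein-coding counts the mRNAs were at 4.18 and 2.90 in WT against 2.59 and 2.56 in DKO, a log2 ratio of −0.46 (pooled SD 0.27) without overlap. Of all counts without rRNA-like genes and Lars2, they took 2.195 and 1.566% in WT against 1.561 and 1.599% in DKO. That log2 ratio was −0.25 (pooled SD 0.24), and the groups overlapped. The first WT library stood above the other 3 on each of these scales.

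**Figure D3:**
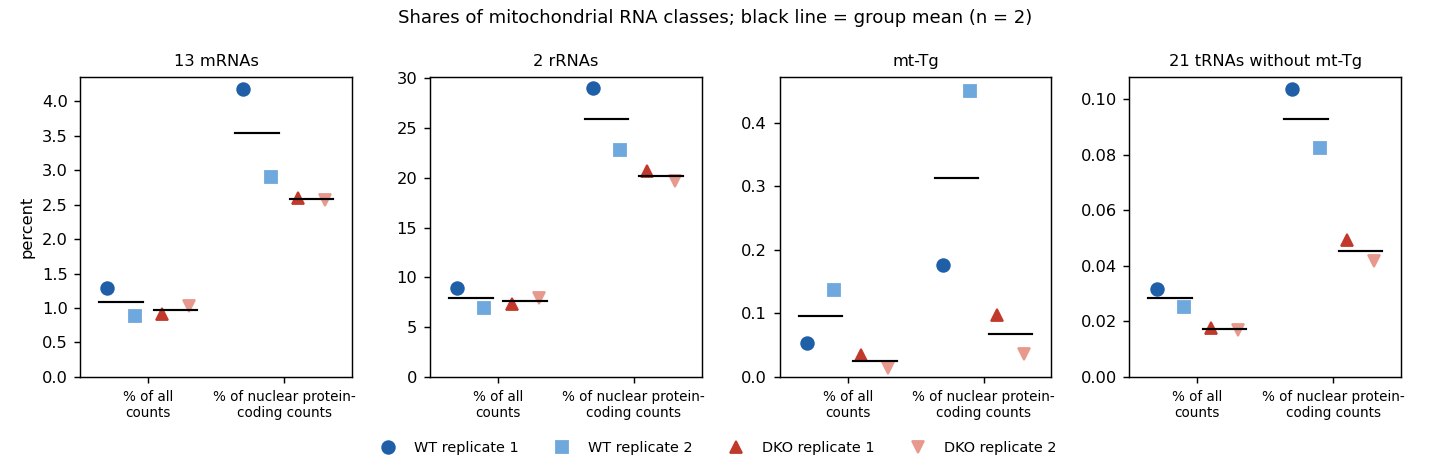
Share of the 13 mRNAs, the 2 rRNAs, mt-Tg and the other 21 tRNAs in each of the 4 libraries. Values are percent of all counts and of nuclear protein-coding counts without Lars2. Black lines are group means (n = 2). The mRNA and rRNA shares of all counts overlap between WT and DKO, while those of mt-Tg and of the other tRNAs lie lower in both DKO libraries on both scales.

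Complex I, the NADH dehydrogenase that feeds electrons into the chain, takes 7 of the mRNAs. mt-Nd1 (chrM:2751-3707, plus strand) had 1076 and 683 CPM in WT and 564 and 508 CPM in DKO, and mt-Nd2 (chrM:3914-4951, plus strand), another membrane-arm subunit, had 940.2 and 647 CPM against 525 and 445 CPM. In both, WT replicate 1 stood highest and the DKO libraries lay close together below WT replicate 2, at log2 differences of −0.71 (SE 0.23) and −0.71 (SE 0.21). mt-Nd4 (chrM:10167-11544, plus strand) showed the same order, with 1053 and 590.1 CPM in WT and 496 and 478 CPM in DKO and a log2 difference of −0.75 (SE 0.26). Its partner on a shared transcript, mt-Nd4l (chrM:9877-10173), overlaps it by 7 bases and had 94.7 and 81.6 CPM in WT and 77.1 and 60.7 CPM in DKO. The log2 difference of mt-Nd4l was −0.36 (SE 0.16), and 0.12 on the TPM scale. mt-Nd5 (chrM:11742-13565, plus strand), the longest of the mRNAs at 1824 bases, had 941 and 681 CPM in WT and 519.7 and 494 CPM in DKO and a log2 difference of −0.68 (SE 0.20). mt-Nd3 (chrM:9459-9806, plus strand) was the mRNA whose WT libraries lay closest, with 119 and 119 CPM in WT and 89.1 and 74.01 CPM in DKO. Its log2 difference was −0.54 (SE 0.14) with an unadjusted edgeR p of 0.00444 and an adjusted p of 0.277, and both DKO libraries were below both WT libraries also as a share of all counts. Without WT replicate 1 the log2 difference was −0.35 for mt-Nd1, −0.42 for mt-Nd2, −0.28 for mt-Nd4 and −0.43 for mt-Nd5, and mt-Nd4l was at −0.17 without DKO replicate 2.

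mt-Nd6 (chrM:13552-14070), the only mRNA on the minus strand, had 449 and 291 CPM in WT and 208 and 195 CPM in DKO. The DKO libraries were below the WT libraries and differed less from each other than did the WT libraries. Its log2 difference of −0.88 (SE 0.21) was the most negative among the mRNAs, with an adjusted edgeR p of 0.219, and was −0.53 without WT replicate 1. Over 12 alternative settings mt-Nd6 was called in 3, with log2 differences from −1.14 to −0.40 and adjusted p from 7.04e-05 to 0.912. Its last 14 bases overlap those of mt-Nd5 on the other strand, so reads there cannot be assigned without the strand setting. Set against mt-Nd5 in the same library, mt-Nd6 had 47.7 and 42.8% as many counts in WT against 40.1 and 39.5% in DKO, a log2 difference of −0.18 (pooled SD 0.08) that was −0.11 without WT replicate 1.

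Complex III, which passes electrons from ubiquinol to cytochrome c, has a single mitochondrial mRNA. mt-Cytb (chrM:14145-15288, plus strand) had 1640.2 and 1022 CPM in WT and 896 and 823 CPM in DKO, with a log2 difference of −0.63 (SE 0.24). Again WT replicate 1 stood apart from the other 3 libraries, which lay close together, and without it the log2 difference was −0.25.

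Complex IV, cytochrome c oxidase, takes 3 mRNAs. mt-Co1 (chrM:5328-6872, plus strand), the catalytic subunit, had the most counts of the mRNAs, with 3295 and 2452 CPM in WT and 2119 and 2046 CPM in DKO and a log2 difference of −0.46 (SE 0.22). mt-Co2 (chrM:7013-7696, plus strand), which accepts electrons from cytochrome c, had 1141 and 714 CPM in WT and 604 and 576 CPM in DKO and a log2 difference of −0.65 (SE 0.23). mt-Co3 (chrM:8607-9390, plus strand) had 929 and 912 CPM in WT and 699 and 662 CPM in DKO. In mt-Co3 the WT libraries were nearly level and the DKO libraries lay below both, at −0.44 (SE 0.16). Without WT replicate 1 the log2 difference was −0.24 for mt-Co1 and −0.28 for mt-Co2. On the TPM scale all 3 had overlapping groups. The same held there for both rRNAs and every other mRNA except mt-Atp6, whose DKO libraries lay above the WT libraries.

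Complex V, the ATP synthase, has 2 mRNAs that lie on 1 transcript and share 43 bases (chrM:7927-7969, plus strand), printed here because the counts of the pair rest on how reads in and around this stretch were divided; capitals mark the start codon of mt-Atp6.
mt-Atp8 and mt-Atp6 overlap: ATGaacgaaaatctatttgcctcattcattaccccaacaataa

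mt-Atp8 (chrM:7766-7969), a short subunit of the membrane part, had 412 and 274 CPM in WT and 239.6 and 219 CPM in DKO and a log2 difference of −0.58 (SE 0.20), which was −0.26 without WT replicate 1. mt-Atp6 (chrM:7927-8607), the subunit that forms the proton path, had 1695 and 2088 CPM in WT and 1917 and 1929 CPM in DKO. It was the only tested member without a negative difference, at 0.02 (SE 0.20), and its lowest library was WT replicate 1, the library in which the 11 other plus-strand mRNAs were highest. The difference was −0.12 without that library and 0.45 on the TPM scale, and edgeR's adjusted p was 0.989. There were 4.12 and 7.61 counts of mt-Atp6 per count of mt-Atp8 in WT against 8.003 and 8.82 in DKO. On the log2 scale this is a difference of 0.59 (pooled SD 0.45), and 0.14 without WT replicate 1. The low ratio thus belonged to 1 library and not to both WT libraries.

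mt-Atp6 took 12.3 and 19.8% of the mitochondrial mRNA counts in WT against 21.4 and 22.7% in DKO, and the groups did not overlap. Its log2 ratio to the other plus-strand mRNAs differed by 0.59 (DKO minus WT, pooled SD 0.41), by 0.19 without WT replicate 1 and by 0.9998 without WT replicate 2. For mt-Nd1, mt-Nd2, mt-Nd5 and mt-Nd6 the share lay lower in both DKO libraries, for mt-Nd1 at a mean of 6.13% against 7.14% in WT and for mt-Nd6 at 2.31% against 3.01%. The other 8 mRNAs overlapped between the groups, mt-Co1 most closely with 23.9 and 23.2% in WT against 23.7 and 24.1% in DKO. These shares are parts of 1 total, so a higher share of mt-Atp6 lowers those of the others. A like share was not computed over all genes. By CPM after TMM, 18.8% of all genes lay lower in both DKO libraries and 19.8% higher, so separation by itself does not mark out these mRNAs.

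**Figure D4:**
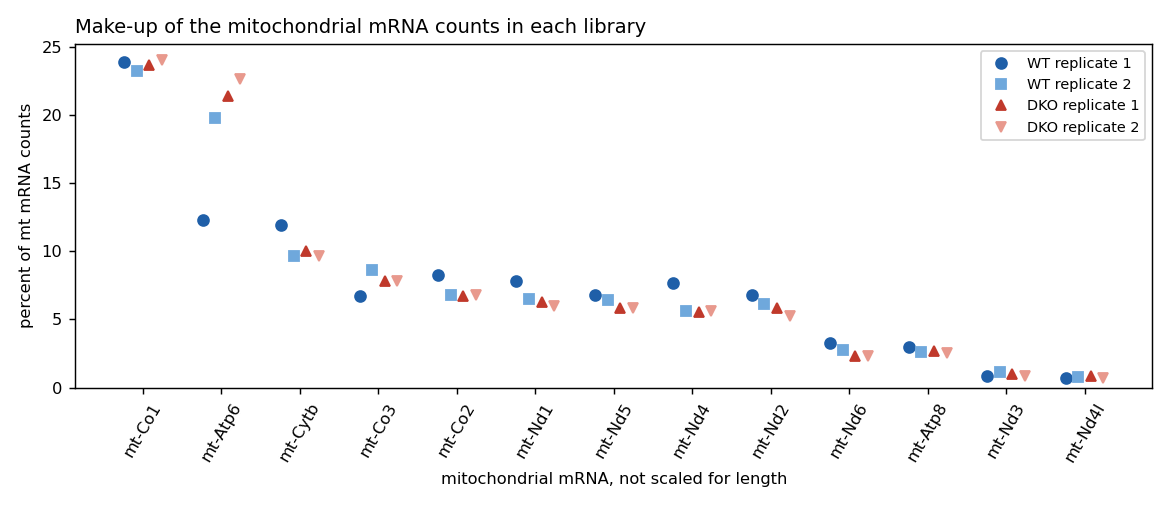
Percent of the mitochondrial mRNA counts that fell on each of the 13 mRNAs, not scaled for length, in 2 WT and 2 DKO libraries. mt-Atp6 takes 12.3% in WT replicate 1 and 19.8 to 22.7% in the other 3 libraries, whereas mt-Co1 takes 23.2 to 24.1% in all 4.

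Per unit of length, on the deposited TPM scale, the order of the mRNAs was nearly kept between the groups. The highest mean levels in WT were those of mt-Atp8 at 285 TPM and mt-Atp6 at 264 TPM, followed by mt-Co1 at 161, mt-Co2 at 132, mt-Co3 at 109 and mt-Cytb at 104 TPM. mt-Nd3, mt-Nd4l and mt-Nd5 closed the order in WT at 40.8, 38.7 and 38.0 TPM. Neighbours in the WT order overlapped between libraries except mt-Atp6 (257.5 and 270.1 TPM) and mt-Co1 (197 and 125 TPM). In DKO mt-Atp6 led with 363 ± 39.0 TPM, ahead of mt-Atp8 with 266 ± 21.1 TPM (SD, n = 2 each) and with no overlap between their libraries, and mt-Nd5 was last at 30.8 TPM. Across the 13 mRNAs the log2 TPM of the group means had a Pearson correlation of 0.979 between WT and DKO, given as a description over genes that share libraries. Subunits of the same complex did not share a level, since mt-Nd1 had 84.3 TPM and mt-Nd5 38.0 TPM in WT although both lie on the plus strand. The minus-strand mt-Nd6 had 74.5 TPM in WT and 54.0 TPM in DKO, within the range of the plus-strand mRNAs. mt-Rnr1 and mt-Rnr2 had 4026 and 2548 TPM in WT and 3869 and 2649 TPM in DKO. For the tRNAs the deposited effective length was 9.65 to 15.1 bases, so their TPM are not set against those of longer RNAs here.

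The tRNAs were the class with the widest gap between WT and DKO and also the class with the widest gap between the WT libraries. All 22 together took 0.0857 and 0.162% of all counts in WT against 0.0523 and 0.0315% in DKO. This is a log2 ratio of −1.56 (pooled SD 0.59) without overlap. Over the replicates this was p = 0.333 by the exact two-sided permutation test, the smallest it allows. Per 100 counts of mitochondrial mRNA there were 6.68 and 18.4 tRNA counts in WT against 5.69 and 3.05 in DKO. The log2 difference of that ratio was −1.41 (pooled SD 0.86), −2.14 without WT replicate 1 and −0.68 without WT replicate 2. The DKO libraries were below the nearer WT library by less than the WT libraries were from each other.

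mt-Tg decided most of that sum. It had 579 and 1641 CPM in WT and 339 and 121 CPM in DKO, the highest library being WT replicate 2, and took 62.9 and 84.5% of the tRNA counts in WT against 66.6 and 46.7% in DKO. The groups did not overlap in level, and within each group 1 library was well above the other. Its log2 difference was −2.27 (SE 0.94) with an adjusted edgeR p of 0.701, −1.32 without WT replicate 2 and −3.18 without DKO replicate 1. mt-Tg is encoded directly behind mt-Co3, which had nearly level WT values. Against mt-Co3 in the same library mt-Tg had 62.4 and 180% as many counts in WT against 48.5 and 18.3% in DKO.

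Without mt-Tg the tRNA share was 0.0318 and 0.0250% in WT against 0.0175 and 0.0168% in DKO, a log2 ratio of −0.73 (pooled SD 0.17). Without mt-Ts1 as well, the other 20 tRNAs came to 0.00962 and 0.0106% in WT against 0.0053 and 0.00433% in DKO, a log2 ratio of −1.07 (pooled SD 0.16). In both sums the DKO libraries lay below the WT libraries and the WT libraries lay closer to each other than to DKO. Relative to mitochondrial mRNA, the tRNAs other than mt-Tg had 2.48 and 2.84 counts per 100 in WT against 1.90 and 1.62 in DKO, a log2 difference of −0.59 (pooled SD 0.15). This ratio lies within a library and does not depend on the scaling between libraries. It does set short RNAs against longer ones, and the implied fragment lengths did not overlap between the groups. The part of fragment length in this ratio was not tested.

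Of the minus-strand tRNAs, 7 of 8 were tested. mt-Te, which lies next to mt-Nd6, had 33.1 and 27.4 CPM in WT and 14.5 and 11.6 CPM in DKO. Both DKO libraries were far below both WT libraries, and the libraries within each group lay close together. With a log2 difference of −1.21 (SE 0.18), an unadjusted edgeR p of 0.000114 and an adjusted p of 0.0577, it had the smallest p of all members. Over 12 alternative settings it was called in 6, with log2 differences from −1.36 to −0.77 and adjusted p from 7.62e-08 to 0.250. mt-Tp, the minus-strand gene beside the control region, had 11.6 and 10.8 CPM in WT and 4.89 and 3.23 CPM in DKO. Its WT libraries were nearly level and its DKO libraries lay far below them, at −1.47 (SE 0.26) with an adjusted edgeR p of 0.106. Over the same settings mt-Tp was called in 3, with log2 differences from −1.77 to −1.05.

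mt-Ts1, the most counted of the minus-strand tRNAs, had 238 and 173 CPM in WT and 119 and 103 CPM in DKO. The groups did not overlap in CPM, TPM or share of all counts, at −0.89 (SE 0.18) with an adjusted edgeR p of 0.146, and mt-Ts1 was called in 4 of 12 settings. It shares 3 bases with the end of mt-Co1 on the other strand. Set against mt-Co1, mt-Ts1 had 7.23 and 7.07% as many counts in WT against 5.60 and 5.01% in DKO, a log2 difference of −0.43 (pooled SD 0.08). The WT values of this ratio were nearly equal, unlike the levels of either gene.

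mt-Tq, the glutamine tRNA, had 26.3 and 13.7 CPM in WT and 9.36 and 8.03 CPM in DKO, and its first WT library stood apart. The log2 difference was −1.21 (SE 0.31) with an adjusted edgeR p of 0.313, and mt-Tq was called in 3 of 12 settings. mt-Ty, the tyrosine tRNA beside mt-Co1, had 6.53 and 3.02 CPM in WT and 1.001 and 1.62 CPM in DKO and a log2 difference of −1.86 (SE 0.49) with an adjusted edgeR p of 0.292. Its counts were low, 91 and 35 in WT against 17 and 35 in DKO. Without WT replicate 1 the log2 difference was −0.66 for mt-Tq and −1.19 for mt-Ty. mt-Tn (asparagine) had 2.15 and 1.55 CPM in WT and 1.29 and 0.646 CPM in DKO, at −0.94 (SE 0.63), and mt-Ta (alanine) had 1.22 and 2.16 CPM against 0.235 and 1.2 CPM, at −1.19 (SE 0.83). In both, the higher DKO library came close to the lower WT library. Without DKO replicate 1 they were at −1.49 and −0.46, and without DKO replicate 2 at −0.49 and −2.77. mt-Ta was at −0.72 without WT replicate 2.

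Of the plus-strand tRNAs, 7 of 14 were tested. mt-Tv, between the rRNA genes, had 9.76 and 32.3 CPM in WT and 6.48 and 3.37 CPM in DKO and a log2 difference of −2.10 (SE 0.83), with an adjusted edgeR p of 0.676. mt-Th (histidine), between mt-Nd4 and mt-Nd5, had 4.02 and 13.4 CPM in WT and 6.71 and 2.77 CPM in DKO. Its groups overlapped, and its log2 difference of −0.88 (SE 0.80) became 0.24 without WT replicate 2. The methionine tRNA mt-Tm had 2.15 and 7.597 CPM against 2.47 and 0.462 CPM and overlapped as well, at −1.75 (SE 0.99). The tryptophan tRNA mt-Tw had 2.37 and 5.09 CPM against 1.88 and 0.415 CPM, at −1.72 (SE 0.72), with DKO below WT. The lysine tRNA mt-Tk, between mt-Co2 and mt-Atp8, had 1.005 and 2.94 CPM against 1.001 and 0.554 CPM, at −1.33 (SE 0.74). The leucine tRNA mt-Tl1, behind mt-Rnr2, had 1.005 and 2.76 CPM against 0.824 and 0.831 CPM, at −1.17 (SE 0.69). In all of these 6 and in mt-Tg, WT replicate 2 was the highest library. Without it the log2 difference was −0.99 for mt-Tv, −0.56 for mt-Tm, −1.05 for mt-Tw, −0.36 for mt-Tk and −0.26 for mt-Tl1. The DKO libraries also differed in mt-Tm and mt-Tw, which were at −3.35 and −3.12 without DKO replicate 1 and at −0.94 and −0.95 without DKO replicate 2. mt-Th was at −1.52 without WT replicate 1, −1.62 without DKO replicate 1 and −0.34 without DKO replicate 2.

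The other 8 tRNAs (mt-Tf, mt-Ti, mt-Tc, mt-Td, mt-Tr, mt-Ts2, mt-Tl2 and mt-Tt) had 5 to 31 counts over the 4 libraries and were not tested. mt-Td, the aspartate tRNA, had 0 counts in 3 libraries and 5 in DKO replicate 2, and 3 counts, the floor used here, come to 0.170 to 0.218 counts per 1e6 of a library's total before TMM. mt-Ts2, the shortest tRNA at 59 bases, had 2 and 3 counts in WT and 0 in both DKO libraries, which is at or under that floor in each group. No fold is given for these. Against these, mt-Tg reached 19006 counts in a single library at a length of 68 bases.

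The WT libraries differed from each other along class and strand. Among genes with at least 10 counts summed over the 4 libraries, 10 of 11 plus-strand tRNAs were higher in WT replicate 2 than in WT replicate 1. The median log2 difference was 1.502, and mt-Tr was the exception. The untested mt-Tf, mt-Ti, mt-Tt and mt-Tr are among these 11. They had only 3, 4, 5 and 7 counts in WT replicate 1 against 7, 10, 11 and 1 in WT replicate 2. The 7 tested plus-strand tRNAs were all higher in WT replicate 2. Of the minus-strand tRNAs, 6 of 8 were lower in WT replicate 2 (median −0.36), with mt-Ta and mt-Tc as exceptions. Of the plus-strand mRNAs, 11 of 12 were lower in WT replicate 2 (median −0.50), with mt-Atp6 as the exception, and mt-Nd6 was lower by a log2 difference of −0.62. In DKO the first library was higher in 10 of 11 plus-strand tRNAs, 5 of 8 minus-strand tRNAs and 11 of 12 plus-strand mRNAs. These counts describe pairs of single libraries and carry no test.

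**Figure D5:**
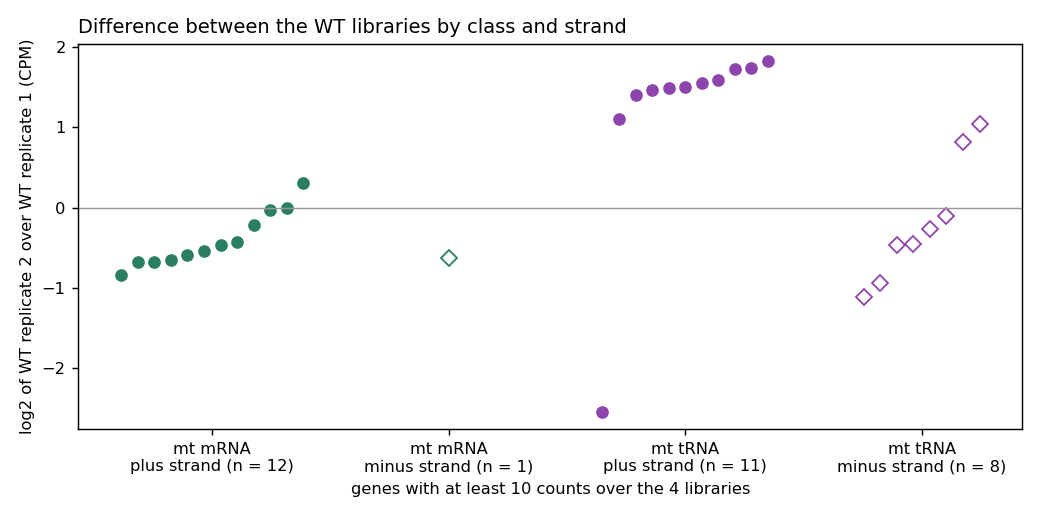
Log2 ratio of CPM in WT replicate 2 over WT replicate 1 for the mitochondrial mRNAs and tRNAs, 1 point per gene, by class and strand. Shown are genes with at least 10 counts summed over the 4 libraries. Of the plus-strand tRNAs 10 of 11 lie above 0 (median 1.502), while 11 of 12 plus-strand mRNAs and 6 of 8 minus-strand tRNAs lie below it.

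Strand was compared between the groups by ratios within each library. Minus-strand mRNA, which is mt-Nd6 alone, came to 3.37 and 2.84% of plus-strand mRNA counts in WT and to 2.38 and 2.35% in DKO. The log2 difference was −0.39 (pooled SD 0.12) without overlap, −0.26 without WT replicate 1 and −0.51 without WT replicate 2. For tRNAs the minus strand came to 53.2 and 13.6% of the plus strand in WT against 41.8 and 99.5% in DKO, a log2 difference of 1.26 with a pooled SD of 1.16 and overlapping groups. It was 0.28 without WT replicate 2 and 2.24 without WT replicate 1. The minus-strand tRNAs took 0.0297 and 0.0194% of all counts in WT against 0.0154 and 0.0157% in DKO, a log2 ratio of −0.66 (pooled SD 0.31). The plus-strand tRNAs took 0.0560 and 0.142% in WT against 0.0368 and 0.0158% in DKO, a log2 ratio of −1.91 (pooled SD 0.91). The median log2 difference was −1.72 for the 7 tested plus-strand tRNAs and −1.21 for the 7 tested minus-strand tRNAs. The plus-strand median is the value of mt-Tw. mt-Tw and mt-Tm had 9 and 10 counts in DKO replicate 2, and mt-Ta had 4 in DKO replicate 1. These are under the filter's minimum, so these members passed with the help of their WT counts. The medians are thus a description only and draw no contrast between the strands. The library kit keeps strand, but the strand setting of the quantification was not stated in the sources used here, so precursor reads from the opposite strand cannot be told apart from a gene's own.

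Length was set against the difference within each class. Across the 13 mRNAs (204 to 1824 bases) Spearman's correlation of length with the log2 difference was −0.32, and across the 14 tested tRNAs it was 0.33, both given as descriptions over genes of the same 4 libraries. Nuclear snoRNAs, scaRNAs and snRNAs of 59 to 75 bases, the length range of the tRNAs, had a median log2 difference of −2.06 over 43 tested of 191 genes. In 32 of these 43 both DKO libraries lay below both WT libraries, beside 18.8% of all genes. The log2 difference was below 0 in all 43, beside 51.9% of all genes. The filter can be met by a single group, so a gene high in either group alone could be kept. Over the 236 tested nuclear RNAs of these types above that length and up to 200 bases, the median was −1.59. Of these, 177 lay below, beside the same 18.8% of all genes. The tRNA median of −1.27 lay between those of these short nuclear RNAs and of all genes, and the difference between these sets was not tested. GC content was 17.1 to 44.9% in the tRNAs (median 34.1) and 31.9 to 41.1% in the mRNAs (median 37.1).

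Parts of the mitochondrial genes also occur in nuclear DNA, and reads from those parts are divided by the quantification. Of the 31-base words of each gene, 100% in mt-Co2, 99.9% in mt-Co3, 99.5% in mt-Atp6, 98.9% in mt-Nd4l and 98.1% in mt-Nd3 occur in a nuclear transcript of the annotation, against 63.9% in mt-Co1 and 62.8% in mt-Nd4. For mt-Nd1, mt-Rnr1 and every tRNA except mt-Ty the share was 0. The nuclear transcript with the most counts, Gm29216 (chr1:24615706-24616197, minus strand), had 4939 and 2527 counts in WT against 3493 and 4665 in DKO, far under the counts of mt-Co1. Gm13340 had 23 and 25 counts in WT against 29 and 19 in DKO. The gene Cep295, of which 1 transcript shares 4 words with mt-Ty, had 517 and 376 counts in WT against 493 and 644 in DKO, and that transcript itself 33.3 and 10.6 against 19.4 and 17.5. When the counts of the 13 nuclear transcripts with at least 10% of their own words in common were added to the mitochondrial genes, 0 members were called and the mRNA median was −0.63, as without them.

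Nuclear genes for mitochondrial gene expression and for the respiratory chain were looked up in 6 lists that together held 237 tested genes. edgeR called 0 of them in either direction, beside 0.124% of all genes. At an unadjusted p under 0.05 edgeR put 4 lower and 0 higher, beside 4.35% and 3.82% of all genes, and DESeq2 called 1 lower and 0 higher, beside 1.03% and 0.428%. The median log2 difference was 0.00 for mtDNA maintenance and transcription (19 genes tested), −0.17 for RNA cleavage and tRNA maturation (26), −0.03 for RNA stability and decay (20) and 0.01 for aminoacyl-tRNA synthetases (23). For mitochondrial ribosomal proteins it was −0.12 (78) and for nuclear respiratory chain subunits −0.10 (72). Over all 6 lists the median was −0.08 with TMM, 0.26 with total counts and 0.19 with TPM. The medians of all genes tested were −0.01, 0.33 and 0.13 on these scales. Without WT replicate 2 the median of the lists was 0.07.

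By gene, Tfam, which packs mitochondrial DNA and starts transcription, had 19.3 and 23.1 CPM in WT against 32.6 and 22.7 CPM in DKO, a log2 difference of 0.38 (SE 0.20) with overlapping groups. Among tRNA enzymes, Osgepl1, which modifies tRNAs, had 2.87 and 2.24 CPM in WT against 1.71 and 1.39 CPM in DKO, at −0.73 (SE 0.47). Nsun4, an rRNA methyltransferase of the mitochondrial ribosome, was at −0.50 (SE 0.27), and Alkbh1, a dioxygenase that modifies tRNAs, at −0.39 (SE 0.23). Of the decay factors, Rexo2, the exonuclease that removes very short RNAs, had 26.3 and 28.8 CPM in WT against 34.6 and 31.6 CPM in DKO, at 0.27 (SE 0.14). Tbrg4 (FASTKD4), which binds mitochondrial mRNAs, was at −0.43 (SE 0.20) and Ptcd3, a protein of the small ribosomal subunit, at −0.37 (SE 0.19). Among the synthetases, Ears2, which charges the glutamate tRNA mt-Te, had 6.46 and 6.91 CPM in WT against 5.24 and 5.13 CPM in DKO, at −0.37 (SE 0.24). Hars2, which charges mt-Th, was at 0.42 (SE 0.24), and Tars2 for the threonine tRNA at −0.25 (SE 0.16).

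Cox7a2l, a factor that joins complexes III and IV, had 123 and 143 CPM in WT against 88.8 and 77.7 CPM in DKO, at −0.68 (SE 0.14) with an adjusted edgeR p of 0.165. It was the 1 gene of these lists that DESeq2 called, with an adjusted p of 0.0124. The ATP synthase subunits Atp5e and Atp5d were at −0.57 (SE 0.18) and −0.38 (SE 0.16). Of the ribosomal proteins, Mrpl30 was at −0.50 (SE 0.20), Mrpl36 at −0.58 (SE 0.30) and Mrps9 at −0.31 (SE 0.15). Primpol, a primase-polymerase, was at −0.37 (SE 0.21) and Mterf4, which acts with Nsun4 in ribosome assembly, at 0.47 (SE 0.37). Except for Cox7a2l, each of these genes had an adjusted edgeR p of 0.416 or more.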

How the data were processed

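Per the submitters' processing notes, the authors quantified the reads with kallisto and named the builds mm10 and GRCm38; no version, strand setting or annotation release was stated in the sources used here. The deposited files hold estimated counts per transcript, not scaled for depth or length, and TPM, which the authors' quantification scales by effective length, per the file headers. The deposited effective lengths in bases were used for the implied fragment length, which is the difference between length and effective length of long mitochondrial transcripts, plus 1. Of 126782 transcripts, 125182 (98.7%) were joined by identifier to GENCODE M21 on GRCm38, and the lengths of all 37 mitochondrial transcripts equalled the release. The transcripts without a gene held 0.822 to 0.852% of the counts and were left out of the gene values. They are part of all counts, the total to which the shares of classes refer. Shares of single genes were compared on gene counts.

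Estimated counts were summed to genes, rounded and tested with edgeR 4.0.16 in R 4.3.3 (filterByExpr, TMM, robust quasi-likelihood F test on genotype, Benjamini-Hochberg adjustment over all 12863 genes tested, threshold 0.05). The SE of a log2 fold change was taken as its size over the root of F. Groups and replicate numbers come from the sample titles and genotypes. Class sums and ratios within a library were compared with exact two-sided permutation tests over samples. Alternatives were DESeq2 1.42.0, total counts, nuclear protein-coding library sizes without Lars2, no filter, and an effective length offset. Further ones were log2(TPM + 0.5) with limma 3.58.1, nuclear copies added, a replicate block, and leaving out each library. The edgeR fit was checked on simulated data, in which only well-counted genes were changed. It called 29 of 67 genes (43.3%) with a true log2 difference of 1 in size. At a size of 2 it called 60 of 67, and at 4 it called 65 of 66. Of 12055 unchanged genes it called 26.

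The members and the gene lists were chosen with earlier results of these data known. Named are all 37 members, Btg1 and Btg2, up to 3 genes with the smallest unadjusted p in each nuclear list beside any called, and the 3 nuclear genes with the most counts among those sharing 31-base words with a member. The most abundant marker of each other cell type was named by rule and was Cd8b1 (6.75 to 12.9 CPM), Cd79a (0.0863 to 1.29), Itgam (1.77 to 2.96), Klre1 (0.0863 to 0.287), Hbb-bs (0 to 0.508) and Gp1ba (1.25 to 1.94). In the lists, Prorp was found as 1110008L16Rik and Trmt61b was not matched; 1 marker gene is not reported here. Libraries carry no molecular identifiers used here, so counting limits cover counting error only. With 2 libraries a group, the p-values measure the spread between these samples alone.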

Additional observations from a re-analysis of the deposited data

How the results depend on the processing

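With 2 libraries a group, the number of calls depended on the settings. Over all genes edgeR called 16, against 260 with total counts (194 higher, 66 lower), 395 without the filter (141 and 254), 26 with the effective length offset, 188 with DESeq2 (55 and 133), 5 with TPM and limma, and 40 to 165 when 1 library was left out. Of the mitochondrial genes 0 were called, against 1 with total counts (mt-Te), 13 without the filter, 5 with DESeq2 and 0 to 6 when 1 library was left out (mt-Te without WT replicate 1; mt-Nd1, mt-Tq, mt-Ts1, mt-Nd4, mt-Nd6 and mt-Te without WT replicate 2). The replicate block called 142 over all genes (53 and 89) and 4 mitochondrial genes (mt-Tq, mt-Ts1, mt-Te, mt-Tp). The labels mention pairs of mice but not that a replicate number marks a pair, and same-numbered samples deviated with a correlation of −0.35 across genes, so whether the numbers pair the samples is not known. The cause of these differences was not tested.

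The median of the mRNAs was −0.31 with total counts, −0.19 with TPM and −0.88 to −0.28 when 1 library was left out, and that of the rRNAs −0.058 and 0.016 under the first 2. Against nuclear protein-coding counts the log2 ratio of shares was −0.46 for mRNAs and −0.36 for rRNAs. Against all counts without rRNA-like genes and Lars2 it was −0.25 and −0.16. When 1 library was left out, the ratio to all counts ranged from −0.39 to 0.15 for mRNAs and from −0.22 to 0.14 for rRNAs. Single genes turned direction in 5 cases: mt-Rnr2 with total counts (0.0036) and TPM (0.064), mt-Nd4l with TPM (0.12), mt-Atp6 without WT replicate 1 (−0.12, against 0.197 without WT replicate 2) and mt-Th without WT replicate 2 (0.24, against −1.62 without DKO replicate 1). Of the other values for single genes, 313 kept direction and side of the threshold and 30 kept direction and passed it. Depth limits the 8 untested tRNAs.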
